A study of Mus musculus with 4 samples.

Results

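Integrins are the receptors by which cells hold on to extracellular matrix (ECM) and to one another. Each receptor is a pair of 1 α and 1 β subunit, the α subunit sets much of the ligand choice, and the short tails inside the cell recruit talin, kindlin and focal adhesion kinase to the actin cytoskeleton. In brain they are known for anchoring vessels and astrocyte endfeet to laminin, for the entry of T cells and for the matrix contacts of macrophages and fibroblasts in scars. The 10 genes described here were chosen by name as integrin subunits of the matrix and cell-adhesion receptors, out of 33696 gene features in each table, and all 10 had UMIs (unique molecular identifiers, counts of single captured transcripts) in all 4 matrices. The collagen receptor subunits are Itga1 (ENSMUSG00000042284) and Itga11 (ENSMUSG00000032243), and Itga6 (ENSMUSG00000027111) encodes a laminin receptor subunit. Itga5 (ENSMUSG00000000555) and Itga8 (ENSMUSG00000026768) encode α subunits that bind the RGD motif of fibronectin, nephronectin and related ligands. Itga4 (ENSMUSG00000027009) and Itga9 (ENSMUSG00000039115) encode related α subunits whose ligands include VCAM1, an adhesion molecule of activated endothelium, for the former and tenascin-C and osteopontin for the latter. Itgb1 (ENSMUSG00000025809) encodes the shared partner of all of these α subunits, while Itgb3 (ENSMUSG00000020689) and Itgb5 (ENSMUSG00000022817) encode partners of αv.

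Nuclei came from mouse brain 21 days after photothrombotic (PT) injury, a focal ischaemic lesion of the cortex, and were profiled by single-nucleus RNA sequencing. The group labelled control had the genotype WT. The group labelled Cxcl12-cKO had the genotype Col1a2(creER); Cxcl12(flox), in which a tamoxifen-dependent Cre driven by Col1a2 targets the chemokine gene Cxcl12. The study describes this as deletion in all fibroblasts, and the share of fibroblasts that lost the gene was not measured here. Within each genotype 1 male and 1 female mouse were pooled, and lesion and perilesional cortex (called parenchyma) were tagged, mixed at 75% and 25% and captured as 1 library, so neither genotype had a replicate library. The study's methods state a range of adult ages that holds unless another is given, as it is for a different stroke model. No age was found for these mice alone. Differences between libraries carry no test, and every interval below is a 95% interval for counting error only. UMIs from the X-inactivation gene Xist or from Y-linked genes assigned nuclei to the female or male mouse, which gave 4 mice in which mouse and sex cannot be told apart.

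The lesional matrices held 8608 and 8421 barcodes in the control-labelled and cKO-labelled libraries and the parenchymal matrices 3244 and 3216, with 31995274 to 62749811 UMIs per matrix. After filtering, 21743 nuclei remained, with median UMIs of 2962 and 2975 in the lesions and 15915 and 16648 in the parenchyma, and 47 barcodes occurred in both libraries. UMIs of both sexes, a sign of doublets or free RNA, were found in 9.75% to 14.3% of nuclei per matrix. Levels are given as CPM, the UMIs of a gene per 1000000 UMIs of the class. Cxcl12, the targeted gene, was at 106 CPM (101 to 112) in control-labelled and 216 CPM (208 to 223) in cKO-labelled lesional fibroblast-like nuclei, a log2 ratio of 1.02 (0.93 to 1.11). This direction goes against the label. No source used here names the deleted part of Cxcl12, so it is not known whether counts near the 3′ end could show the deletion, and each direction below is given between libraries as labelled.

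Classes were named from marker genes with the integrins left out of clustering. One group, cluster 3, expressed 7 of 8 myeloid markers but had none of them among its 10 leading genes. The leading genes included Csf3r, listed here as a neutrophil gene, so the group is called by its number. Averaged over each list on the log2 scale, its myeloid markers were raised by 4.86 and its neutrophil markers by 3.49. Its lesional states, described below, included homeostatic microglia-like and monocyte or dendritic-like nuclei. Another group, named bone matrix-like, was led by Tnn, Bglap and Sp7, genes of bone-forming cells. It expressed 4 of 6 bone matrix markers, and the least detected marker was in 0% of its nuclei. On the same scale its bone matrix markers were raised by 4.76 and its fibroblast markers by 2.71. The fibroblast markers summed to 9280 CPM there and to 4162 CPM in fibroblast-like nuclei. CPM values are comparable between classes for 1 gene but not between genes, since the 3′ counts are not per length.

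Each integrin subunit had its own order of classes. Mural-like nuclei (smooth muscle cells and pericytes, 81 nuclei) led for Itga1, Itga8 and Itgb1, T cell-like nuclei for Itga4 and Itgb3, cluster 3 for Itga5 and Itgb5, endothelial-like nuclei for Itga6, oligodendrocyte precursor-like nuclei for Itga9 and bone matrix-like nuclei for Itga11. Fibroblast-like nuclei, the most numerous class with 8285 nuclei, led for none of them and yet held 68.4% of all UMIs of Itga11 and 62.2% of those of Itga1.

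**Figure D1:**
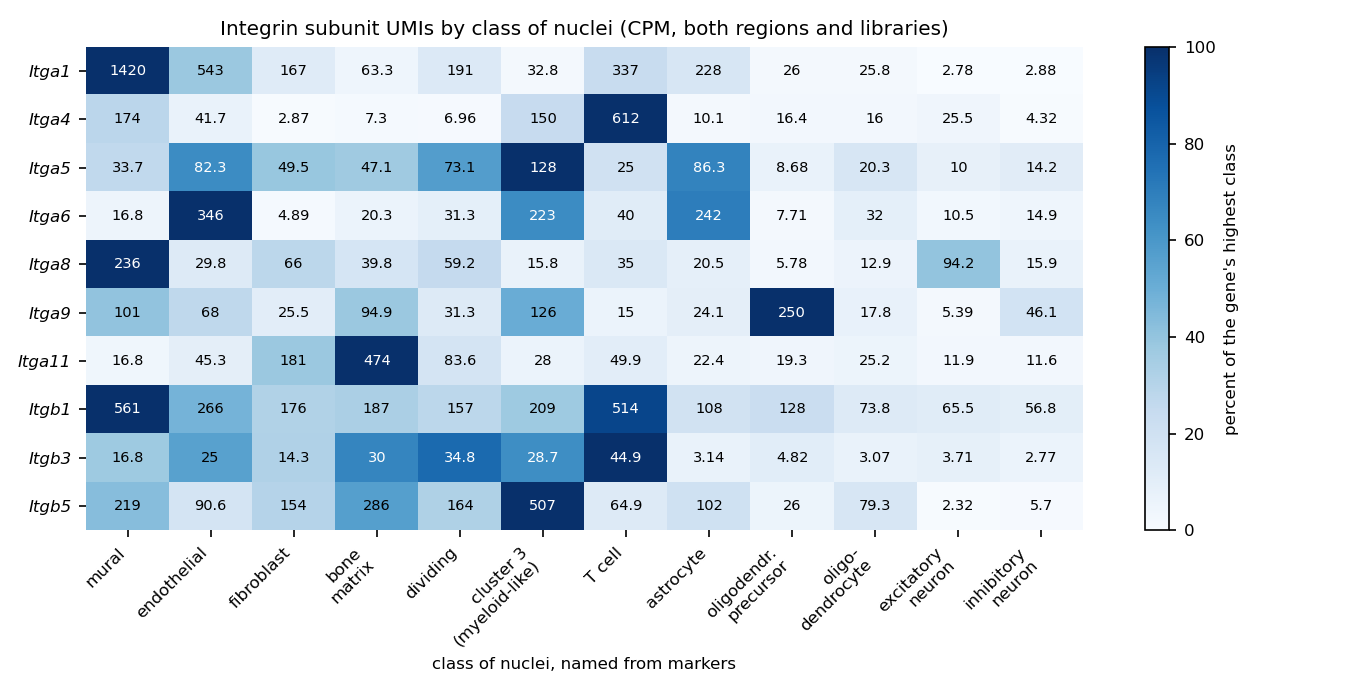
Level of the 10 integrin subunits by class of nuclei, both regions and libraries together. Rows are genes, columns are classes, the printed values are CPM and the colour gives each value as a percent of the gene's highest class. Itga1 is darkest in mural-like nuclei (1420 CPM), Itga4 in T cell-like nuclei (612 CPM), Itgb5 in cluster 3 (507 CPM) and Itga11 in bone matrix-like nuclei (474 CPM).

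The collagen receptor subunits led in different classes. Itga1 was at 1420 CPM in mural-like nuclei (1251 to 1607), 543 CPM in endothelial-like nuclei (494 to 595) and 337 CPM in T cell-like nuclei (283 to 399). Astrocyte-like nuclei followed at 228 CPM and fibroblast-like nuclei at 167 CPM (162 to 171), with the intervals of neighbouring classes overlapping through a small dividing cluster. Itga1 was nearly absent from neurons, at 2.78 CPM in excitatory and 2.88 CPM in inhibitory neuron-like nuclei. After each nucleus was thinned to 1000 UMIs, 63.0% of mural-like nuclei had an Itga1 UMI, against 1.56% of oligodendrocyte-like nuclei, which serve as a background for free RNA (medians of 1917 and 2713 UMIs before thinning). Without thinning the shares were 72.8% and 5.74%. Itga11 was at 474 CPM in bone matrix-like nuclei (436 to 514) and 181 CPM in fibroblast-like nuclei (177 to 186), both apart from every class below. The next class, dividing nuclei at 83.6 CPM, also carried the fibroblast markers at a summed 5201 CPM. Mural-like nuclei, which led for Itga1, had 3 UMIs of Itga11.

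The laminin receptor subunit Itga6 was highest in endothelial-like nuclei, astrocyte-like nuclei and cluster 3. It was at 346 CPM in endothelial-like nuclei (307 to 388), 242 CPM in astrocyte-like nuclei (228 to 258) and 223 CPM in cluster 3 (215 to 232), and the last pair did not differ beyond counting error. An unnamed glial class came next at 153 CPM (131 to 179), then ependymal-like nuclei at 92.1 CPM on 16 UMIs and T cell-like nuclei at 40.0 CPM, also on 16 UMIs, and each of these last intervals overlapped its neighbour. Mural-like nuclei had 3 UMIs of Itga6. Fibroblast-like nuclei were lowest at 4.89 CPM (4.12 to 5.76).

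The RGD-binding α subunits differed in where they were found. Itga5, which with Itgb1 forms the main fibronectin receptor, was at 128 CPM in cluster 3 (121 to 134), followed by astrocyte-like nuclei at 86.3 CPM, endothelial-like nuclei at 82.3 CPM, dividing nuclei at 73.1 CPM and fibroblast-like nuclei at 49.5 CPM (47.0 to 52.1). Itga8 was at 236 CPM in mural-like nuclei (170 to 319), 94.2 CPM in excitatory neuron-like nuclei (92.2 to 96.2) and 66.0 CPM in fibroblast-like nuclei (63.1 to 69.1), each apart from the next except that the fibroblast-like and dividing nuclei overlapped. Excitatory neuron-like nuclei held 76.0% of all Itga8 UMIs, and were the class with the most UMIs per nucleus. Their thinned share with an Itga8 UMI was 7.81% (50.3% before thinning), against 0.488% in oligodendrocyte precursor-like nuclei.

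Itga4 was highest in an immune class. It was at 612 CPM in T cell-like nuclei (538 to 693), 174 CPM in mural-like nuclei on 31 UMIs and 150 CPM in cluster 3 (143 to 157), and the mural-like and cluster 3 values did not differ beyond counting error. Fibroblast-like nuclei were lowest at 2.87 CPM (2.29 to 3.56). Thinned shares with a UMI were 28.4% in T cell-like and 0.260% in fibroblast-like nuclei (40.6% and 0.990% before thinning, at medians of 1348 and 3096 UMIs). The related Itga9 was at 250 CPM in oligodendrocyte precursor-like nuclei (220 to 282), the glial cells that give rise to oligodendrocytes, and at 126 CPM in cluster 3, 101 CPM in mural-like and 94.9 CPM in bone matrix-like nuclei, which overlapped as neighbours. Oligodendrocyte-like nuclei had 17.8 CPM. Inhibitory neuron-like nuclei, at 46.1 CPM (43.0 to 49.3), stood above excitatory neuron-like nuclei at 5.39 CPM (4.92 to 5.89).

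Itgb1 was found in every class, from 561 CPM in mural-like (457 to 683) and 514 CPM in T cell-like nuclei (447 to 590) to 56.8 CPM in inhibitory neuron-like nuclei (53.4 to 60.4). Cluster 3 (209 CPM), bone matrix-like (187 CPM) and fibroblast-like nuclei (176 CPM) lay in the middle, with neighbouring intervals overlapping. Itgb3, best known from platelets and osteoclasts, was sparse, with 1422 UMIs in all. Its first 6 classes, from T cell-like (44.9 CPM on 18 UMIs) to mural-like nuclei (16.8 CPM on 3 UMIs), could not be ranked by counting error. Itgb5 was at 507 CPM in cluster 3 (494 to 520), 286 CPM in bone matrix-like nuclei (257 to 318) and 154 CPM in fibroblast-like nuclei (149 to 158), and at 2.32 CPM in excitatory neuron-like nuclei (2.02 to 2.66). A UMI of Itgb5 was present in 38.3% of nuclei of cluster 3 after thinning and in 0.299% of excitatory neuron-like nuclei (62.4% and 3.46% before).

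Lesional fibroblast-like nuclei were split into 4 states by clustering again without the integrins, and a description of the subunits by state follows. State 0 (1898 nuclei, led by Lama3 and Erg) had the markers of a late inner fibroblast state. State 1 (2226 nuclei, led by Npr3) and state 3 (859 nuclei, leading genes including Col4a6, Col13a1 and Kl) could not be named, and state 2 (3201 nuclei, led by Sptssb, Trpm3 and Dpp4) is called by its number. The subunits divided between states 0 and 3. Itga11 was highest in state 0, Itga1 and Itga8 in state 3.

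**Figure D2:**
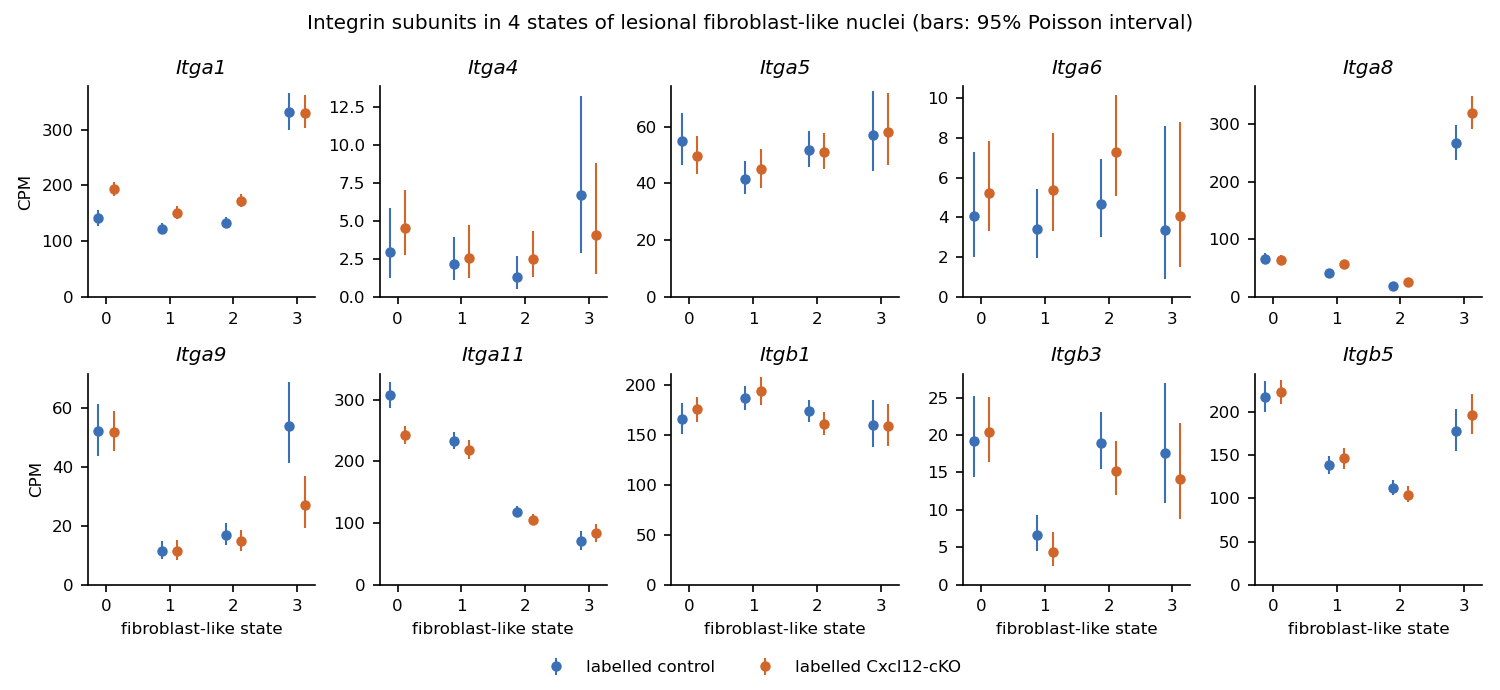
Levels of the integrin subunits in the 4 states of lesional fibroblast-like nuclei, in CPM with 95% counting intervals, for the control-labelled and cKO-labelled libraries. Itga8 stands at 266 and 319 CPM in state 3 and at 66.5 CPM or less in the other states, while Itga11 is highest in state 0 and lowest in state 3.

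In state 3 Itga8 was at 266 CPM (238 to 297) in the control-labelled library and 319 CPM (291 to 349) in the cKO-labelled library, against 19.9 and 25.6 CPM in state 2. State 3 over the other states gave log2 ratios of 2.80 (2.59 to 3.01) and 2.73 (2.56 to 2.91). Itga1 was at 331 CPM in state 3 of both libraries and between 122 and 193 CPM elsewhere. The same state had Lama1, a laminin chain of the pial basement membrane, at 998 CPM, against 8.22 to 162 CPM in the other states. Its astrocyte marker list summed to 1370 CPM, against 265 to 886 CPM in the other states, and the part of those markers in the integrin levels was not tested.

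Itga11 was highest in state 0 and lowest in state 3. It was at 308 and 243 CPM in state 0, 233 and 219 CPM in state 1, 118 and 106 CPM in state 2 and 70.6 and 83.0 CPM in state 3, control-labelled values first. The intervals of states 0 and 1 were apart in the control-labelled library and overlapped in the other. Itgb5 was also highest in state 0, at 218 and 224 CPM, and lowest in state 2, at 113 and 104 CPM. Itga9, the subunit for tenascin-C, was at 52.1 and 51.8 CPM in state 0 and 11.4 and 11.3 CPM in state 1. In state 3 Itga9 was at 53.8 CPM (41.4 to 68.7) in the control-labelled library and 27.0 CPM (19.3 to 36.8) in the cKO-labelled library. Itgb3 was low in state 1, at 6.61 and 4.37 CPM, and between 14.2 and 20.4 CPM in the others. Itgb1, the shared partner, stayed between 159 and 194 CPM over all states and libraries, and Itga5 between 41.7 and 58.0 CPM.

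Cluster 3 in the lesion was split into 5 states, the smallest of which was led by genes of dividing cells. State 0 (1505 nuclei) was led by F13a1 and Mrc1, genes of border macrophages. Only 3 of 6 border macrophage markers were up in state 0, so it is called by its number. In a finer clustering, F13a1 and Mrc1 were leading genes of a group of 257 nuclei. Mamdc2, Anxa1 and Cd36, also leading genes of state 0, were leading genes of a separate group of 578 nuclei that could not be named. State 1 (1799 nuclei) was homeostatic microglia-like, and state 3 (110 nuclei, led by Il12b, Ccr7 and Flt3) was monocyte or dendritic-like. State 2 (678 nuclei) stayed unnamed, and 24.8% of its nuclei held both kinds of sex-linked UMIs.

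The subunits were not level between these states. Itga4 was at 994 CPM (870 to 1130) in the monocyte or dendritic-like state, 223 CPM (209 to 238) in state 0 and 84.9 CPM (76.5 to 94.1) in the homeostatic microglia-like state. Itgb5 ran in the opposite order, at 51.2 CPM (26.5 to 89.4), 449 CPM (428 to 470) and 726 CPM (701 to 752). Itga6 was higher in the homeostatic microglia-like state, at 303 CPM (287 to 320), than in state 0, at 218 CPM (204 to 233), and Itga9 the reverse, at 108 CPM (98.2 to 118) and 189 CPM (176 to 203). The monocyte or dendritic-like state had a single Itga9 UMI, while its Itgb1 level was 392 CPM (316 to 481), above the 231 and 180 CPM of states 0 and 1. Itga1 and Itga11 were at most 7.62 CPM in states 0 and 1 but at 111 and 93.3 CPM in state 2. The 8 fibroblast markers, all detected, summed to 2879 CPM in state 2 and to 235 and 252 CPM in states 0 and 1. Their part in the collagen receptor UMIs of state 2 was not tested.

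Vascular and glial nuclei were also split further. One endothelial-like subcluster (102 nuclei, led by Egfl7, Selp and Pecam1) had Itga9 at 142 CPM (98.6 to 199), whereas another (81 nuclei, led by Cldn5, Ly6c1 and Slco1a4, genes of the blood–brain barrier) had 0 UMIs of Itga9, for which 3 counts would be 12.3 CPM. Both had Itga6 at about the same level, 478 CPM (394 to 574) and 471 CPM (389 to 566). Itga1 was at 595 CPM (501 to 701) and 750 CPM (645 to 867), which overlapped, and Itga5 at 138 CPM (95.2 to 194) and 69.7 CPM (40.6 to 112), which also overlapped. A 79-nucleus endothelial-like subcluster with UMIs of both sexes in 38.0% of nuclei had Itga9 at 64.6 CPM.

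Among astrocyte-like nuclei, Itga1 and Itga5 differed between subclusters beyond counting error. The subcluster led by A2m and including the reactive astrocyte genes Gfap and Chil1 (483 nuclei) had Itga1 at 285 CPM (264 to 308) and Itga5 at 111 CPM (98.1 to 126). The subcluster led by Slc7a10 and Grin2c, genes of resting astrocytes (150 nuclei), had 77.0 CPM (57.2 to 102) and 16.9 CPM (8.46 to 30.3). Itga6 was at 283 CPM (262 to 305) and 242 CPM (206 to 283), which overlapped. A further astrocyte-like subcluster (176 nuclei, 42.0% of them with UMIs of both sexes) had Itga6 at 160 CPM (138 to 185), apart from both. Between the regions, Itga1 was at 232 and 264 CPM in lesional astrocyte-like nuclei and at 32.7 and 35.3 CPM in the 37 and 44 parenchymal ones, and Itga5 at 74.8 and 112 CPM against 10.9 and 4.41 CPM on 3 UMIs in all. Itgb5 was at 142 and 141 CPM in the parenchyma and 114 and 84.8 CPM in the lesion. In the parenchyma 33 of 37 and 42 of 44 nuclei were of the Slc7a10 subcluster. In the lesion 55 of 343 and 20 of 385 were. The part of this make-up in the regional values was not tested. A glial subcluster that could not be named (313 nuclei, led by Gpr179) had Itga1 at 258 CPM (229 to 291), Itga6 at 153 CPM and Itga5 at 15.1 CPM. The fibroblast markers summed to 1128 and 357 CPM in lesional astrocyte-like nuclei (control-labelled first) and to 163 and 115 CPM in parenchymal ones, and to 212 and 220 CPM in the A2m and Slc7a10 subclusters. In the subcluster rich in UMIs of both sexes the fibroblast markers summed to 1782 CPM. Their part in the Itga1 levels was not tested.

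Lesion and parenchyma were then compared within each library, in the 3 classes with at least 50 nuclei in each region, as log2 ratios of CPM. A subunit with at least 50 UMIs was counted when its ratio passed 0.5 on the log2 scale in both libraries. In fibroblast-like nuclei 3 of 9 subunits were higher in the lesion and 0 lower, where 13.9% of all genes were higher and 15.6% lower. The parenchyma held only 51 and 50 fibroblast-like nuclei. Itga1 was at 147 and 189 CPM in lesional and 35.7 and 61.0 CPM in parenchymal nuclei, the control-labelled library first, with log2 ratios of 1.96 (1.06 to 3.26) and 1.58 (0.86 to 2.54). Itga11 was at 191 and 175 CPM against 76.0 and 98.5 CPM, and its ratios were 1.29 (0.65 to 2.11) and 0.80 (0.22 to 1.52). Itga8 had ratios of 0.98 (-0.03 to 2.55) and 0.92 (0.03 to 2.23). Itgb1 was at 176 and 174 CPM against 192 and 347 CPM, so that only the cKO-labelled library had an interval off 0 (-1.33 to -0.64). The fibroblast markers summed to 4448 and 3963 CPM in the lesional and 1475 and 1561 CPM in the parenchymal nuclei of this class, and their part in these ratios was not tested.

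In excitatory neuron-like nuclei 2 of 10 subunits were higher in the lesion and 1 lower, where 3.12% of all genes were higher and 19.3% lower. Itga4 was at 17.0 and 12.8 CPM in the lesion and 25.6 and 28.1 CPM in the parenchyma, with ratios of -0.58 (-0.86 to -0.32) and -1.12 (-1.63 to -0.68). These nuclei formed a pair of clusters, and Itga4 lay almost wholly in the larger. In the parenchyma it was at 31.3 and 33.7 CPM in the larger cluster and 0.534 and 2.02 CPM in the smaller, whose leading genes included Hs3st4, a gene of deep cortical layers. The larger cluster alone still had less Itga4 in the lesion, at 20.8 CPM (17.3 to 24.8) and 17.2 CPM (12.2 to 23.5). Itga8 followed the same clusters, at 112 and 118 CPM against 16.2 and 10.7 CPM in the parenchyma, and its regional ratios were -0.15 (-0.27 to -0.03) and -0.70 (-0.92 to -0.49). By mouse, the Itga4 ratio was -0.47 and -1.20 in the female and male mouse labelled control and -1.63 in the female labelled Cxcl12-cKO. The male labelled Cxcl12-cKO went the other way at 0.42 (-0.52 to 1.14), with 39 lesional nuclei and 14 UMIs at 27.4 CPM against 21.3 CPM in the parenchyma. Its Itga8 ratio was 0.41 (0.04 to 0.74), at 141 and 107 CPM, so of the mice labelled Cxcl12-cKO only the female, whose Itga8 ratio was -1.23 (-1.58 to -0.92), was lower in the lesion for both subunits.

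The subunits that were higher in lesional excitatory neuron-like nuclei were low ones. Itgb5 was at 5.27 and 4.79 CPM against 1.60 and 2.28 CPM, with ratios of 1.72 (1.11 to 2.31) and 1.11 (0.17 to 1.87), and Itga1 at 4.22 and 4.15 CPM against 2.33 and 2.85 CPM (0.87, 0.23 to 1.45, and 0.59, -0.41 to 1.38). The fibroblast markers summed to 160 and 93.8 CPM in the lesional and 32.9 and 32.8 CPM in the parenchymal nuclei. The myeloid markers summed to 32.7 and 45.6 CPM in the lesional and 43.1 and 47.0 CPM in the parenchymal nuclei. The part of either marker list in these integrin ratios was not tested. With the 10% of barcodes with the highest doublet score removed, the Itgb5 ratios were 0.02 and 0.38 and the Itga1 ratio of the cKO-labelled library was -0.48, so neither subunit passed 0.5 in both libraries. In inhibitory neuron-like nuclei 0 of 6 subunits passed, where 2.56% of all genes were higher and 13.6% lower. Itgb5 had ratios of 3.19 (2.41 to 4.05) and 1.95 (0.90 to 2.92) there but fewer than 50 UMIs in the cKO-labelled library.

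**Figure D3:**
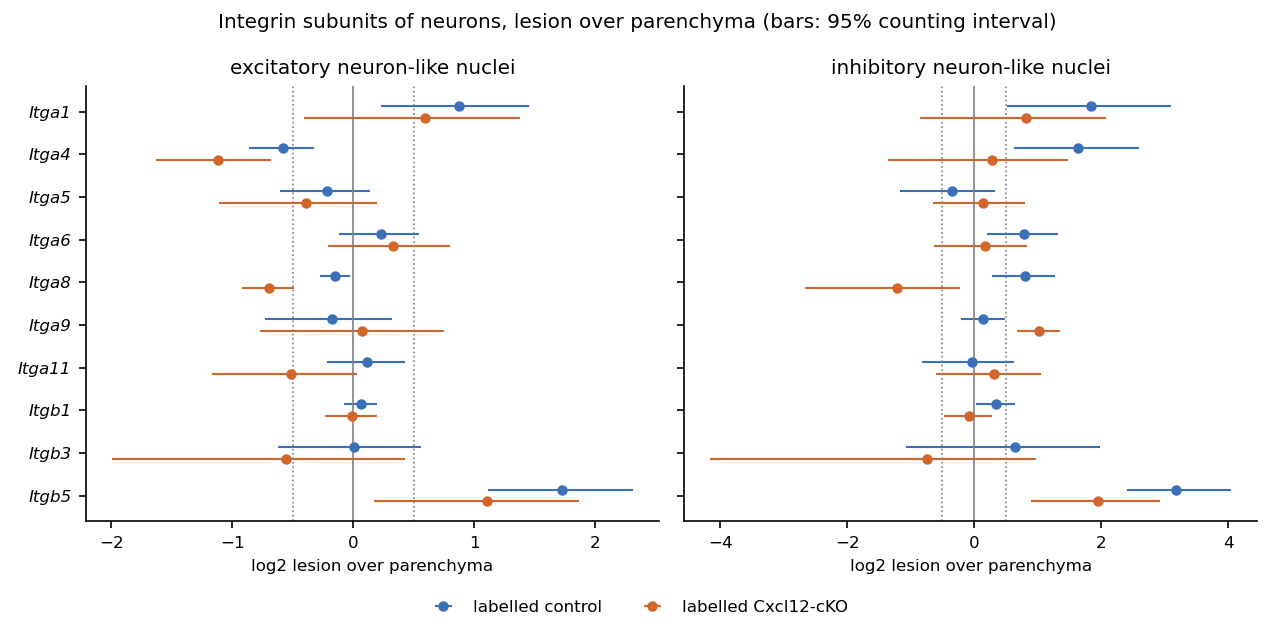
Log2 ratio of lesion over parenchyma for the integrin subunits in excitatory (left) and inhibitory (right) neuron-like nuclei, with 95% counting intervals, for each library, with dotted lines at a log2 ratio of 0.5 in either direction. Itga4 lies below 0 and Itgb5 above 0 in both libraries in excitatory neuron-like nuclei.

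Libraries were compared within lesional classes as log2 ratios, cKO-labelled over control-labelled, and values are given in the order control, Cxcl12-cKO. In fibroblast-like nuclei 1 of 10 subunits was at or past 0.5, where 8.31% of all genes with enough UMIs were, and the median over the subunits was 0.11. That subunit was Itga6, on 57 and 85 UMIs and at 4.01 and 5.83 CPM (0.54, 0.04 to 1.05). Itga1 and Itga8 were also higher in the cKO-labelled library, at 147 and 189 CPM (0.36, 0.28 to 0.44) and at 57.3 and 75.6 CPM (0.40, 0.27 to 0.53), though under the fold of 0.5. Itgb5 was at 147 and 161 CPM (0.13, 0.04 to 0.22). The remaining subunits with over 500 UMIs in each library lay nearer to 0. Itgb1 was at 176 and 174 CPM (-0.01, -0.09 to 0.07), Itga5 at 49.3 and 49.7 CPM (0.01, -0.14 to 0.16) and Itga11 at 191 and 175 CPM (-0.12, -0.20 to -0.05).

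The 4 mice were then set side by side. In fibroblast-like nuclei, values of the mice of 1 label lay wholly above those of the other for 2 of 10 subunits, Itga1 and Itga4, where 41.1% of all genes did not overlap. Itga1 was at 134 and 163 CPM in the female and male mouse labelled control and at 233 and 165 CPM in those labelled Cxcl12-cKO. The male mice were therefore almost equal, and the pooled ratio of 0.36 (0.28 to 0.44) was 0.80 between the female mice and 0.03 between the male mice. Itga8 was at 38.7 and 72.9 CPM in the female and male mouse labelled control and at 113 and 48.0 CPM in those labelled Cxcl12-cKO, so that the female and male mice moved in opposite directions. State 3, where Itga8 was highest, made up 7.08%, 11.3%, 15.6% and 7.76% of fibroblast-like nuclei in these mice in the same order. Within state 3 Itga8 still differed, at 286, 250, 471 and 113 CPM. Itga11 was at 177, 200, 150 and 193 CPM and overlapped between labels.

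**Figure D4:**
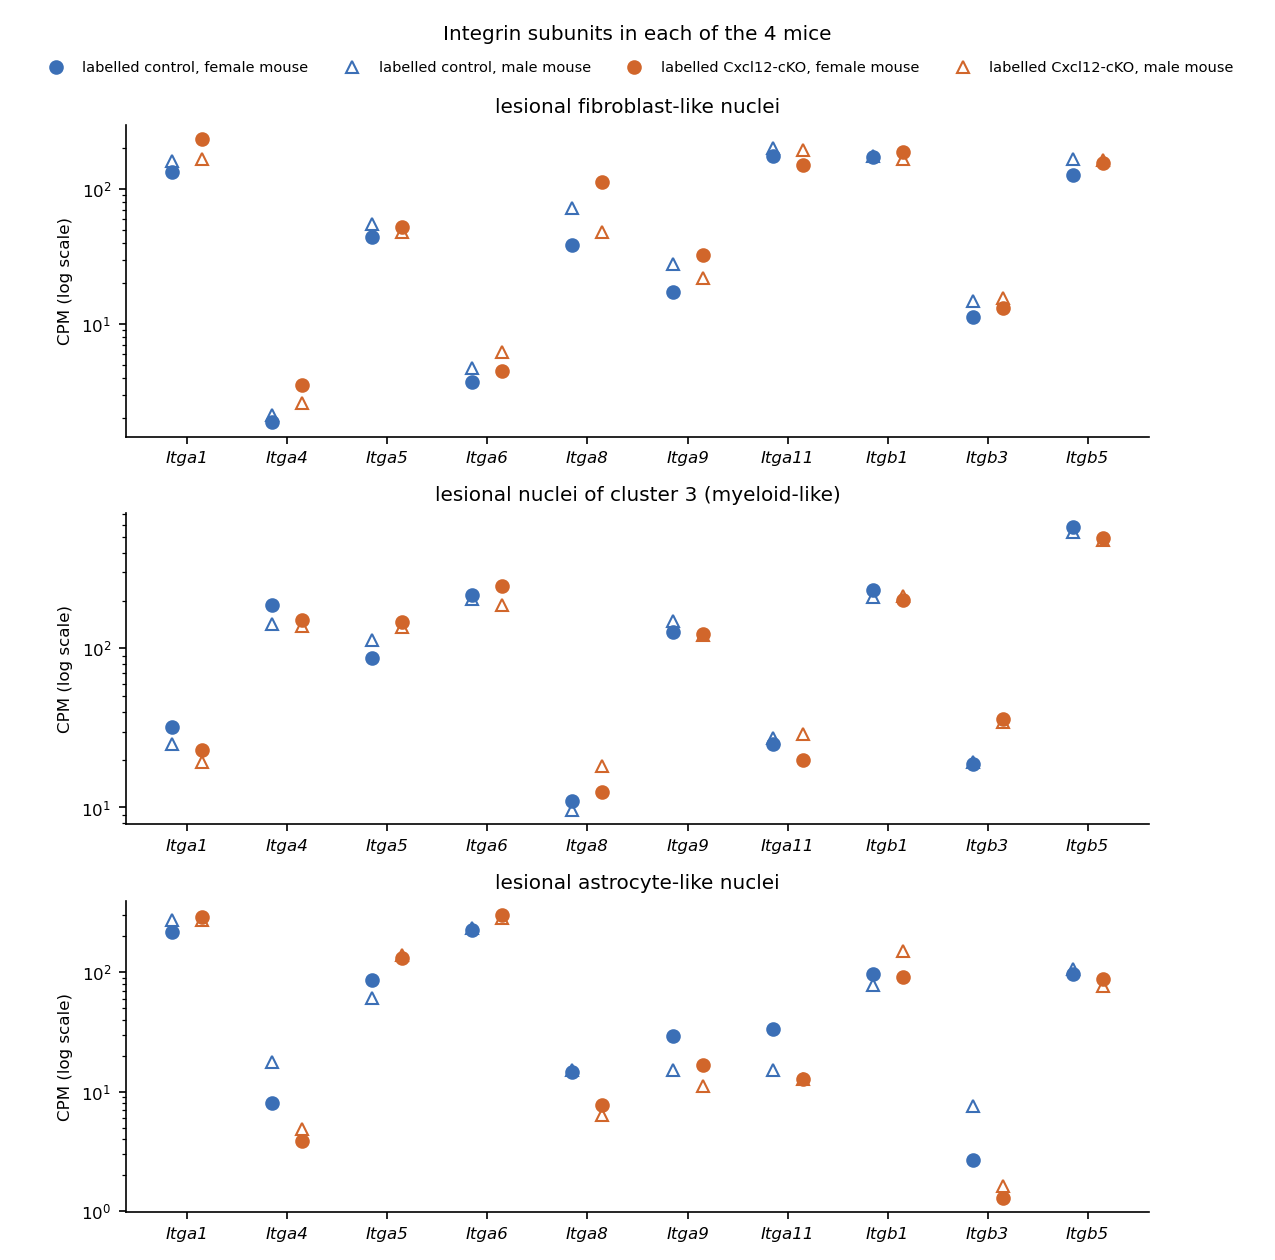
Level of each integrin subunit in lesional fibroblast-like nuclei, cluster 3 and astrocyte-like nuclei for the 4 mice (filled circles female, open triangles male), in CPM on a log scale. In fibroblast-like nuclei the female mouse labelled Cxcl12-cKO has the highest Itga8 (113 CPM) and the female mouse labelled control the lowest (38.7 CPM), and in cluster 3 both mice labelled Cxcl12-cKO lie above both labelled control for Itga5 and Itgb3.

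In cluster 3 again 1 of 10 subunits was at or past 0.5, where 9.21% of all genes were. Itga5 was at 103 CPM in the control-labelled library and 146 CPM in the cKO-labelled library (0.50, 0.35 to 0.66). Among the mice it was at 86.8 and 113 CPM against 146 and 137 CPM. The ratio was 0.53 (0.28 to 0.78) in state 0, 0.36 (0.11 to 0.62) in the homeostatic microglia-like state and 0.60 (0.23 to 0.99) in state 2, so Itga5 was higher in all 3 large states. Itgb3 was at 18.8 and 19.2 CPM in the mice labelled control and 35.8 and 34.6 CPM in those labelled Cxcl12-cKO, although the pooled ratio was 0.30 (-0.03 to 0.63). Nuclei that could not be assigned to 1 mouse entered the pooled value only.

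Itgb5 was lower in cluster 3 of the cKO-labelled library, at 551 and 473 CPM (-0.22, -0.29 to -0.15), and at 577 and 539 CPM against 495 and 478 CPM in the mice. Values of the mice did not overlap for 6 of 10 subunits, of which Itga5, Itga8 and Itgb3 were higher and Itga1, Itga9 and Itgb5 lower, where 33.5% of all genes did not overlap. Fibroblast markers in this cluster summed to 1162 and 738 CPM in the control-labelled and cKO-labelled libraries, and their part in the Itga1 values was not tested. The pooled Itga1 ratio ran the other way from the mice, at 31.4 and 34.1 CPM (0.12, -0.18 to 0.42).

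**Figure D5:**
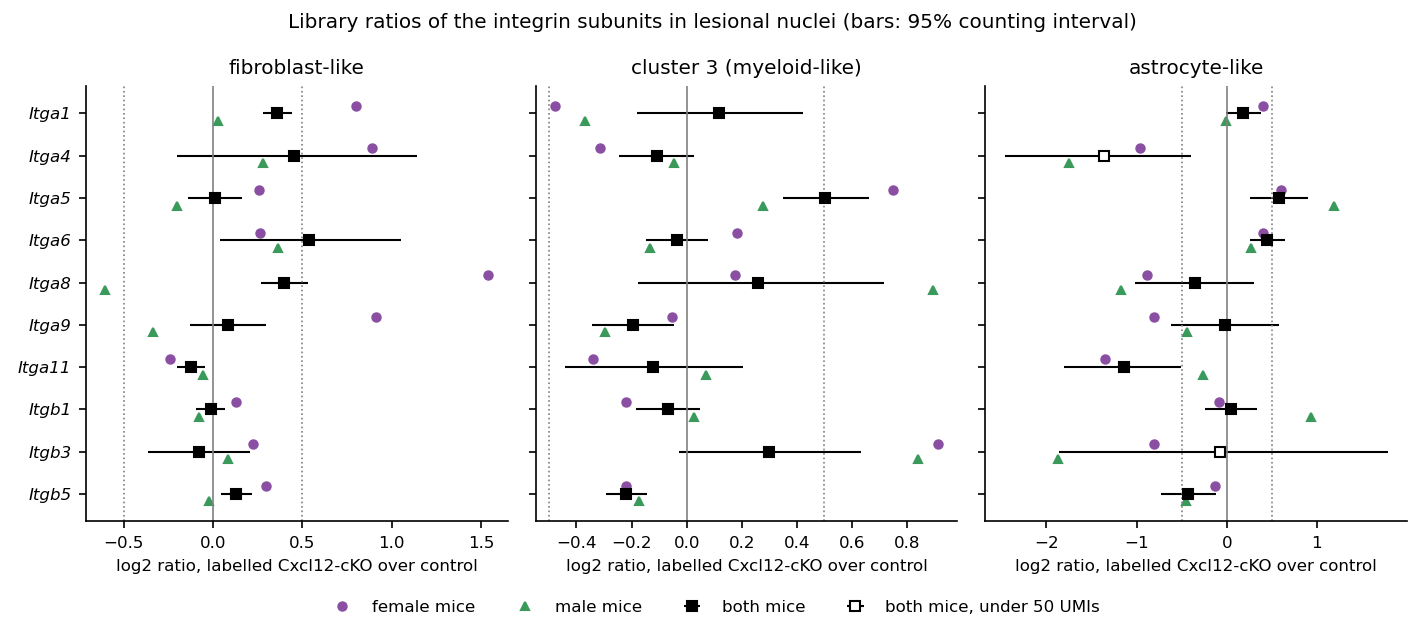
Log2 ratio between libraries, labelled Cxcl12-cKO over labelled control, for the integrin subunits in lesional fibroblast-like nuclei, cluster 3 and astrocyte-like nuclei, with 95% counting intervals (squares, open with under 50 UMIs), the female mice as circles, the male mice as triangles and dotted lines at 0.5 in either direction. Itga5 lies at 0.50 in cluster 3 and 0.57 in astrocyte-like nuclei and at 0.01 in fibroblast-like nuclei.

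Astrocyte-like nuclei had 2 of 8 subunits at or past 0.5, where 15.7% of all genes were. Itga5 was at 74.8 and 112 CPM (0.57, 0.26 to 0.90), and the mice were at 85.9 and 60.5 CPM against 131 and 140 CPM. The make-up of the class differed between libraries. The A2m subcluster, where Itga5 was highest, held 181 of 343 nuclei in the control-labelled library and 296 of 385 in the cKO-labelled library. The Slc7a10 subcluster held 55 and 20, and the subcluster rich in UMIs of both sexes 107 and 69. Within the A2m subcluster Itga5 was at 87.1 and 125 CPM (0.52, 0.12 to 0.94). Itga11 was at 35.6 and 16.1 CPM (-1.14, -1.81 to -0.51) beside the fibroblast markers given above, at 1128 and 357 CPM. It had 5 and 7 UMIs in the A2m subcluster. The subcluster rich in UMIs of both sexes had 52 and 25 Itga11 UMIs, a ratio of -0.46 (-1.23 to 0.24). The part of that subcluster in the class ratio was not tested. Itga6, the laminin receptor subunit, was at 207 and 282 CPM (0.45, 0.26 to 0.65) with both mice labelled Cxcl12-cKO, at 301 and 287 CPM, above both labelled control, at 228 and 237 CPM. Within the A2m subcluster Itga6 was at 240 and 308 CPM (0.36, 0.11 to 0.61). Of the 8 subunits with enough UMIs 5 did not overlap between the labels, 2 higher and 3 lower, where 38.5% of all genes did not overlap.

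T cell-like nuclei (115 and 101 nuclei) had 1 of 3 subunits past 0.5, where 22.8% of all genes were. Itga4 was at 773 CPM on 170 UMIs in the control-labelled library and 411 CPM on 72 UMIs in the cKO-labelled library (-0.91, -1.33 to -0.51). The mice were at 784 and 895 CPM against 372 and 489 CPM and did not overlap. Its partner Itgb1 was at 482 and 548 CPM (0.19, -0.23 to 0.60), and its female and male ratios were 0.76 and -0.56.

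In endothelial-like nuclei 2 of 6 subunits were past 0.5, where 21.5% of all genes were. Itga1 was at 607 and 414 CPM (-0.55, -0.87 to -0.24) and at 579 and 473 CPM against 417 and 418 CPM in the mice. Itga9 had a ratio of 0.80 (0.00 to 1.61) on 28 and 29 UMIs, and the male mouse labelled Cxcl12-cKO was at 151 CPM and the others at 20.8 to 65.6 CPM.

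The other classes had few subunits with enough UMIs. Oligodendrocyte precursor-like nuclei had 1 of 2 past 0.5 (Itgb1 at -0.57), where 20.2% of all genes were, and oligodendrocyte-like nuclei 1 of 2 (Itgb5 at 0.81), where 15.8% were. Excitatory neuron-like nuclei had 1 of 8 (Itga11 at -0.60, -1.31 to 0.01), where 10.3% of all genes were, and bone matrix-like nuclei 1 of 6 (Itga5 at -0.60, -2.07 to 0.46), where 23.1% were. In inhibitory neuron-like nuclei 3 of 5 were lower (Itga6, Itga8 and Itgb5), where 24.2% of all genes were past 0.5 in either direction. A cluster led by Drd2, a gene of striatal neurons, made up part of these nuclei. It held 12 of 138 in the control-labelled library and 51 of 137 in the cKO-labelled library. In the female and male mouse labelled control it held 5 of 62 and 5 of 55. In those labelled Cxcl12-cKO it held 42 of 103 and 1 of 17, so only the female had the larger share. This cluster had 1 UMI of Itga6 in each library. In the other inhibitory cluster Itga6 was at 26.3 and 23.9 CPM (-0.12, -1.01 to 0.69). Itga8 was at 31.0 and 5.23 CPM in the class (-2.48, -3.95 to -1.42, on 51 and 7 UMIs) and at 34.4 and 6.29 CPM in that cluster (-2.33, -4.14 to -1.14), and Itgb5 had a ratio of -1.15 (-2.36 to -0.19) there. Fibroblast markers summed to 248 and 119 CPM in these nuclei, and their part in the integrin ratios was not tested.

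Genes that act with the 10 subunits were taken from 3 lists of other integrins, matrix ligands and adhesion adaptors and kinases. In lesional fibroblast-like nuclei 2 of 10 other integrins with enough UMIs were higher and 0 lower, 2 of 26 matrix ligands higher and 1 lower, and 2 of 22 adaptors higher and 0 lower, with medians of -0.01, 0.05 and 0.03, beside the 8.31% of all genes. Tnc, which encodes the Itga9 ligand tenascin-C, was at 130 and 75.6 CPM (-0.78, -0.89 to -0.67), while Spp1, which encodes osteopontin, was at 35.4 and 51.8 CPM (0.55, 0.39 to 0.72). Svep1, which encodes a matrix protein that binds α9β1, was at 46.6 and 78.0 CPM (0.74, 0.60 to 0.88), with 1.49 between the female and 0.15 between the male mice. The TGFβ-activating pair was at 145 and 146 CPM for Itgav (0.02, -0.07 to 0.11) and 98.1 and 125 CPM for Itgb8 (0.35, 0.25 to 0.45). Among the adaptors, Tns3, a tensin that links β subunits to actin, was at 205 and 308 CPM (0.58, 0.52 to 0.65).

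In cluster 3, 0 of 9 other integrins were higher and 1 lower, 1 of 26 matrix ligands higher and 8 lower, and 1 of 22 adaptors higher and 0 lower, beside the 9.21% of all genes. Of the 8 lower ligands, 4 were lower between both the female and the male mice. Over all genes, 7.27% were past 0.5 in either direction with the same direction in the female and the male mice. The lower ligands included Col1a2, at 538 and 251 CPM, which is itself a fibroblast marker. Mfge8, an αv ligand used in engulfment, was at 27.5 and 48.8 CPM (0.83, 0.54 to 1.13). Vcl, which encodes vinculin, was at 73.2 and 112 CPM (0.61, 0.42 to 0.79).

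Ligands and receptors were spread over different classes. Itgav, the αv partner of Itgb3 and Itgb5, was highest in cluster 3 at 335 CPM, as Itgb5 was. The ligand genes had their highest levels in mural-like nuclei for Vtn (1201 CPM), in bone matrix-like nuclei for Tnc (1222 CPM), in cluster 3 for Spp1 (311 CPM), in endothelial-like nuclei for Vcam1 (240 CPM) and in fibroblast-like nuclei for Lama2 (1486 CPM).

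Genes with the most similar pattern were found by Pearson correlation of log2(CPM + 1) over 26 profiles of class and library among 13815 genes, as a description, since the profiles share libraries and depth. Itga1 was closest to Il1r1 (r = 0.95), Gbp7 and Cxcl12 (both 0.94), Itga11 to Col8a2 (0.95), Gxylt2 and Zfhx4 (both 0.94), and Itgb5 to Vwa5a (0.97), Rrbp1 (0.96) and Anxa4 (0.95). The nearest genes were Hnrnpll for Itga4 (0.92), As3mt for Itga5 (0.92), Nrros for Itga6 (0.87), Ptpn3 for Itga8 (0.83), Zfp608 for Itga9 (0.82), Adgre5 for Itgb1 (0.94) and Slain2 for Itgb3 (0.92). Within the 10 subunits the highest correlation was between Itgb1 and Itgb3 (0.91) and the lowest between Itga8 and Itga9 (-0.69).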

How the data were processed

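The authors ran Cell Ranger 9.0.0 on GRCm39, as the submitters' processing notes name them, and deposited 4 matrices of UMI counts, whole numbers per gene and nucleus, 1 per region of each library. No source used here says whether intronic reads were counted. The 2 tag libraries were not used here.

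The filter removed the outer 2.5% of barcodes at each end by UMIs and by genes and the top 2.5% by mitochondrial share (1746 of 23489). Nuclei were clustered in scanpy 1.11.5 (3000 variable genes, 30 components, 20 neighbours, Leiden resolution 0.25), leaving out integrin, sex-linked and mitochondrial genes and Cxcl12, and lesional fibroblast-like nuclei and cluster 3 were clustered again with 2000 genes. Class names rest on marker lists. A marker counted as up with a UMI in at least 10% of nuclei and a class needed 3 of them with a mean log2 fold of at least 0.5, thresholds set after the clusters had been seen. Clusters whose leading genes went against a name kept their number. Scrublet called 3 and 20 barcodes and had not worked, so doublets were left in and weighed by alternatives.

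UMIs were summed and scaled to CPM with exact Poisson intervals, shares have exact Clopper-Pearson intervals, and log2 ratios (0.5 added to each sum, at least 50 UMIs) have exact conditional intervals in SciPy 1.17.1. Ratios were tested on simulated data. There was 1 library per genotype, so no test was made. Ratios within astrocyte-like subclusters and inhibitory neuron-like clusters and regional ratios by mouse were added after the values had been seen. All 10 subunits are named, with genes of 3 lists past the fold or highest in CPM. The subunits, lists and markers were chosen with earlier results of these data known. Protein sequences of the subunits were not analysed here.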

Additional observations from a re-analysis of the deposited data

Results flagged for a closer look

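In 4 of the 60 lesional ratios with enough UMIs, the female and male mice moved in opposite directions between the labels. Both counting intervals were off 0 in these cases. The share of all genes that did so was not computed. Over all genes with enough UMIs, female and male log2 ratios correlated at 0.19 in fibroblast-like, 0.03 in excitatory neuron-like and -0.04 in bone matrix-like nuclei of the lesion. The difference between the pairs of mice was not tested, and mouse and sex cannot be told apart. Log2 ratios are cKO-labelled over control-labelled. Itga8 in lesional fibroblast-like nuclei gave 1.54 for the females and -0.60 for the males. Itga8 in lesional excitatory neuron-like nuclei gave -0.81 for the females and 0.41 for the males. Itga4 in the same nuclei gave -1.11 for the females and 1.70 for the males. Itga11 in lesional bone matrix-like nuclei gave -0.85 for the females and 0.84 for the males, beside a pooled ratio of 0.02.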

How the results depend on the processing

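No paired analysis of libraries was possible because each genotype had 1 library. The mice were told apart only by sex-linked UMIs within 1 library per genotype, and no fit over the 4 mice with sex as a block was run. Over the alternatives run, 490 of 554 library ratios, 363 of 380 region ratios and 208 of 240 state ratios moved by less than their counting interval. The single mice moved library ratios most, 24 of 60 for the female and 25 of 60 for the male mice. The count of subunits past the fold in lesional fibroblast-like nuclei was 1 and became 0 with no barcode filter, at Leiden resolution 0.5, without nuclei of both sexes, without the highest Scrublet scores, with integrins kept in clustering, at a minimum of 200 UMIs and at a fold of 1, and 4 in the female mice alone. The median over the subunits was 0.28 for the females and -0.039 for the males. In cluster 3 the count was 1 and became 0 with no barcode filter, at resolution 0.5, with the mean of per-nucleus CPM, at a fold of 1 and, in an alternative chosen after seeing the data, without the 3 subclusters rich in nuclei of both sexes, and 2 without nuclei of both sexes and in each sex alone. The Itga5 ratio itself stayed between 0.45 and 0.52 over the 8 alternatives that keep both mice. Of the ratios at or past 0.5 as reported, the direction turned for Itga9 in endothelial-like nuclei (-1.40) and Itga11 in excitatory neuron-like nuclei (0.56) in the female mice, and, without the highest Scrublet scores, for the regional ratios of Itga1 in excitatory neuron-like nuclei of the cKO-labelled library (-0.48) and of Itga1 (-0.59) and Itgb5 (-1.02) in inhibitory neuron-like nuclei of the control-labelled library. Ratios under 0.5 were not counted as turning, though Itga8 in lesional fibroblast-like nuclei (0.40) was -0.60 in the male mice and Itga8 in lesional excitatory neuron-like nuclei (-0.47) was 0.41. The causes were not tested. Under other settings the class with the highest level changed in 8 cases, for Itgb1, Itgb3 or Itga9.

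Depth limits the rare classes. On 28 and 29 UMIs, the Itga9 ratio of endothelial-like nuclei had an interval from 0.00 to 1.61, wider than the fold of 0.5.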
